A study of Mus musculus with 32 samples.

Results

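NRF2, the protein encoded by Nfe2l2, is a transcription factor that KEAP1 holds in the cytoplasm and passes to the proteasome. Oxidants and electrophiles modify cysteines of KEAP1, NRF2 then escapes degradation, pairs with a small MAF protein in the nucleus and binds the antioxidant response element in the regulatory regions of its target genes. The targets make glutathione, keep thioredoxin and peroxiredoxins reduced, supply NADPH and dispose of quinones and heme, and the pathway is known for protecting the lung against oxygen toxicity. The 10 target genes described here are Slc7a11, Gclc, Gclm, Gsr, Txnrd1, Srxn1, G6pdx, Nqo1, Hmox1 and Osgin1. They were chosen by name, as the probes whose gene name in the array files was one of these symbols. That gave 10 of 35715 gene names and 12 of 55681 mouse probes, with 2 probes each for Hmox1 and Gsr. Where a gene had 2, the brighter one is given unless the second is named.

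The arrays measured total RNA from whole perfused lungs of newborn C57Bl/6J mice of both sexes in the hyperoxia model of bronchopulmonary dysplasia, in which pups breathe 85% O2 from the day of birth while control pups breathe 21% O2. All pups of all groups received an antimiR, a synthetic oligonucleotide that blocks a microRNA, either scrambled antimiR (SCR) or antimiR-34a (A34a), by intraperitoneal injection of 10 mg/kg at postnatal day (P)1 and P3. There was therefore no uninjected group. Lungs were taken at P5 or P14, which gave 8 groups of 4 mice, with 1 mouse on each of 32 single-colour arrays. Because whole lung was measured, a lower level may come from fewer cells of a type or from less RNA per cell, and the array cannot tell these apart.

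AntimiR-34a is directed against miR-34a-5p, whose mature sequence is printed here from RefSeq (GRCm38.p6, chr4:150068473-150068494, plus strand) because one of the comparisons turns on it. The capitals mark the seed, bases 2 to 8.
mmu-miR-34a-5p: uGGCAGUGucuuagcugguugu

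RefSeq promoter windows of 300 bases, from 250 before to 50 after each gene start (GRCm38.p6), were at hand for 7 of the 10 genes, in 9 windows. The core of the antioxidant response element was searched as TGACNNNGC on both strands. It was present in 12.4% of all 32851 windows and in 4 of the 9 windows of these genes. Counted by gene, it was in 14% of all genes and in 4 of these 7, Gclm, Srxn1, Txnrd1 and G6pdx. These stretches are shown because they are the match in each, with the core in capitals, 5′ to 3′ on the strand of the gene; all 4 matches read on the opposite strand to the gene, as GCNNNGTCA. Their positions are chr3:122245413-122245441 for Gclm, chr2:152105542-152105570 for Srxn1, chr10:82859104-82859132 for Txnrd1 and chrX:74428919-74428947 for G6pdx.
Gclm: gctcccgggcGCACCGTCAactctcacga
Srxn1: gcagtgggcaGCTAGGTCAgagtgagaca
Txnrd1: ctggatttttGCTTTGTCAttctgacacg
G6pdx: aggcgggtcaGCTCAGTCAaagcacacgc

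The core began 134 bases before the gene start in Gclm, 92 before it in Txnrd1 and 57 before it in G6pdx, and 28 bases after it in Srxn1. Txnrd1 had windows at several gene starts, and only the window chr10:82858956-82859255 held the match. The windows of Nqo1, Slc7a11 and Osgin1 did not hold these letters. A match describes letters only, and elements outside these short windows were not searched.

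Levels are given as the log2 of each array's background-corrected signal, from which that array's 75th percentile was subtracted, so a level below 0 lies under that percentile and a difference of 1 is a doubling. Levels of different probes are not comparable. Differences were tested in limma with one mean per group, and p-values were adjusted over all tested probes. All 12 probes were tested at both ages, and 11 of them cleared the scanner software's background test on every one of the 32 arrays. The probe of Slc7a11 was the exception. It cleared that test in all 16 mice of 85% O2 and in none of the 16 mice of 21% O2, so it passed the filter only through the groups in which it was high. It is left out of every count of genes and every median that uses 21% O2 mice, and these cover the other 9 genes. Only the count of sets with a separated mouse, in the closing sections, includes it.

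Each slide carried 8 mice of 1 age and 1 oxygen level, with the scrambled antimiR mice in the first array row and the antimiR-34a mice in the second. Oxygen level and age cannot be told apart from slide, nor the antimiR from array row. Markers of lung epithelium and endothelium were measured in all groups (8 of 8 genes of each list were well above background on at least 1 array of each age). Replicate 4 of the scrambled antimiR mice in 21% O2 at P5 stood apart in skeletal muscle genes, with a mean of 8 muscle markers 5.02 above the P5 average on the log2 scale, against -0.35 to 0.70 in the other 3 mice. At P14 in 21% O2, the 75th percentile of scrambled antimiR replicate 4 was 9.34 on the log2 scale (10.12 to 10.18 in its group), and that of antimiR-34a replicate 1 was 10.20 (9.56 to 9.64 in its group). Each of them was thus close in brightness to the group of the other antimiR. Whether their labels were exchanged was not tested, and an exchange would alter every comparison that uses the 21% O2 mice of P14, with either antimiR. They were kept as labelled. Counts without these 3 arrays are given beside the results.

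**Figure D1:**
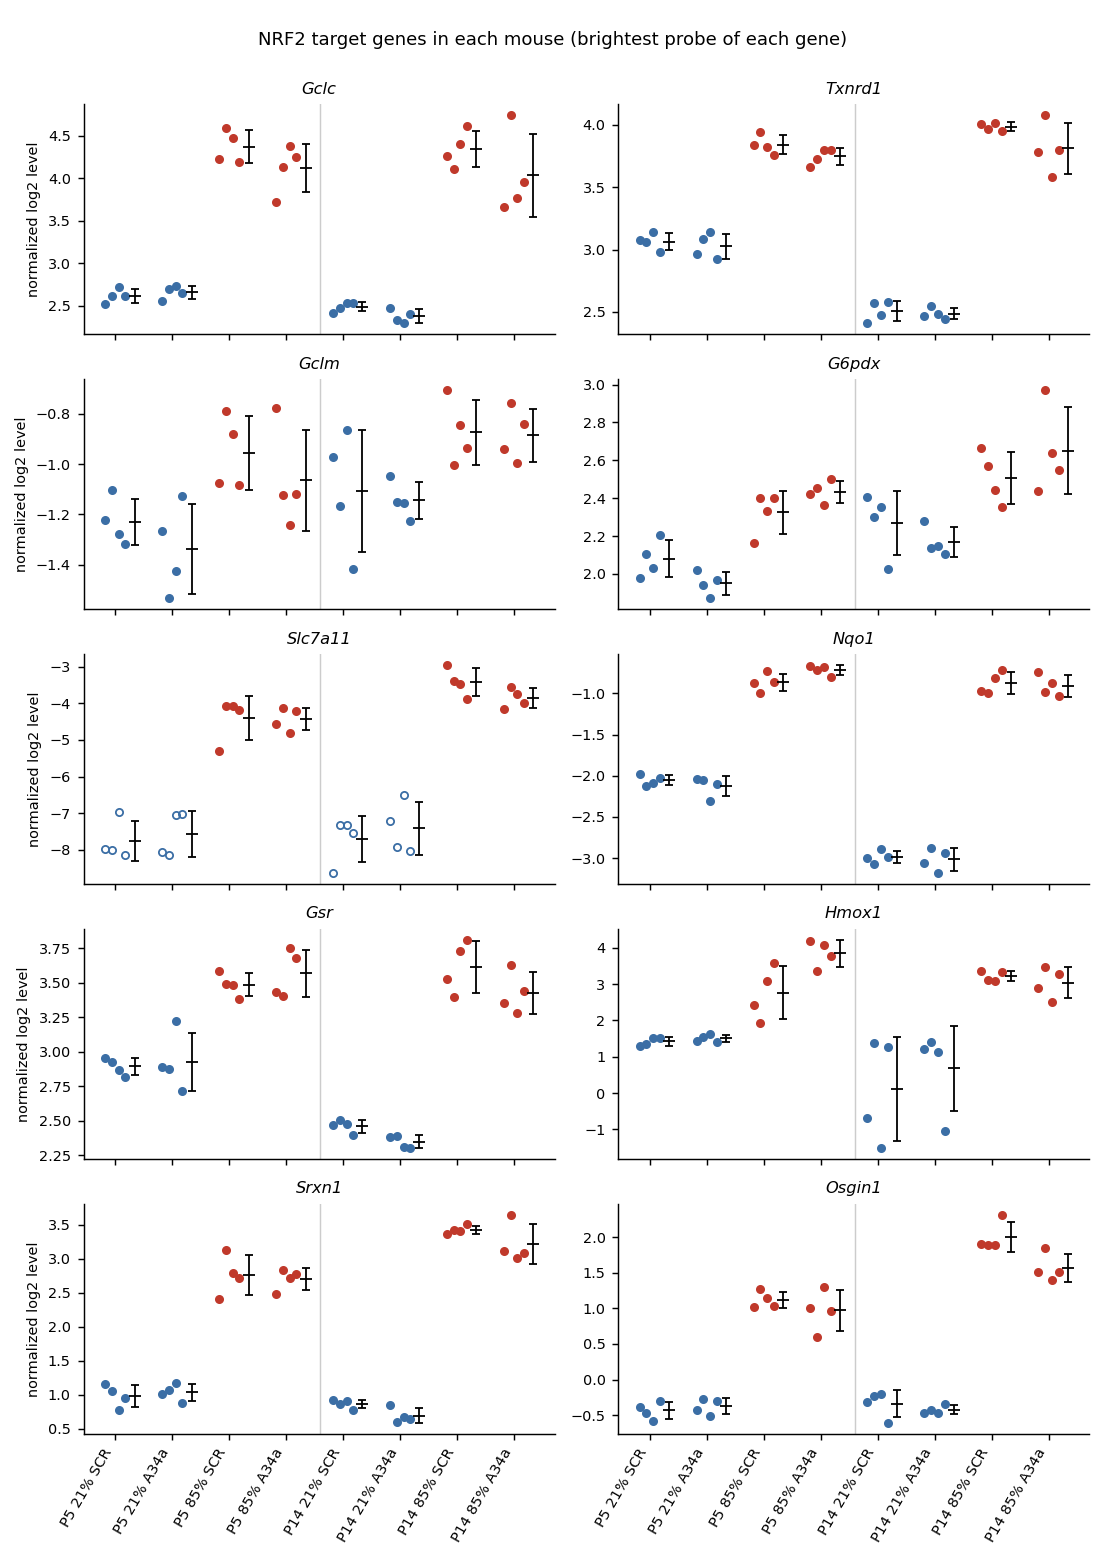
Normalized log2 level (y axis) of each NRF2 target gene in every mouse, by age, oxygen level and antimiR (x axis; SCR, scrambled antimiR; A34a, antimiR-34a). Each point is 1 mouse, blue in 21% O2 and red in 85% O2, open where the probe was not well above background, and black bars are mean ± SD (n = 4). For Gclc in scrambled antimiR mice all red points lie above all blue points at both ages, while for G6pdx they overlap at both.

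Whether hyperoxia changed the NRF2 target genes was asked first in scrambled antimiR mice. At P5, 8 of the 9 genes rose in 85% O2, and Gclm did not pass the test. The median difference of the 9 genes was 1.19 (log2), against -0.07 over all 35982 tested probes, of which 43.9% passed the test (17.4% higher). At P14, 7 of the 9 rose, with Gclm and G6pdx not passing, and the median difference was 1.85 against -0.07 over 38455 tested probes, of which 60.7% passed (28% higher). No gene of the list was lower in 85% O2 at either age, whether or not it passed.

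The 4 genes of glutathione supply behaved unevenly. Slc7a11 is the transport subunit of the cystine/glutamate antiporter, which brings in the cysteine that limits glutathione synthesis. Its level in scrambled antimiR mice at P5 was -5.29, -4.06, -4.06 and -4.17 in 85% O2, all well above background, and -7.96, -8.01, -6.95 and -8.13 in 21% O2, none of them above it. At P14 it was -2.95, -3.39, -3.47 and -3.88 in 85% O2 and -8.63, -7.31, -7.33 and -7.53 in 21% O2. The groups did not overlap at either age. Because the 21% O2 values were at background, only a lower limit can be given: the level in 85% O2 was at least 3.34-fold higher at P5 and at least 7.89-fold higher at P14. No p-value is given for them, because the probe entered the test through its 85% O2 values. These limits set the mean of the 4 bright arrays against the dimmest signal that counted as well above background on each dim array, or the probe's own value where that was higher.

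Gclc, the catalytic subunit of glutamate-cysteine ligase and the rate-limiting enzyme of glutathione synthesis, was 2.52, 2.62, 2.73 and 2.61 in the 21% O2 mice and 4.23, 4.59, 4.47 and 4.19 in the 85% O2 mice at P5. At P14 the values were 2.42, 2.47, 2.53 and 2.54 in 21% O2 and 4.26, 4.10, 4.40 and 4.61 in 85% O2. All 8 hyperoxic mice lay above all 8 normoxic mice. The difference was 1.75 (SE 0.12, 3.36-fold, adjusted p = 1.5e-07) at P5 and 1.85 (SE 0.18, 3.61-fold, adjusted p = 1.8e-06) at P14.

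Gclm, the modifier subunit that makes the same ligase more efficient, differed little. Its level was -1.32 to -1.10 in 21% O2 and -1.08 to -0.79 in 85% O2 at P5, where the groups did not overlap, and -1.42 to -0.86 and -1.00 to -0.70 at P14, where they did. The differences of 0.27 (95% interval 0.04 to 0.51, adjusted p = 0.059) and 0.23 (95% interval -0.00070 to 0.47, adjusted p = 0.078) did not pass the test. The P5 value passed under quantile normalization, with the authors' values, with normexp background correction and in a fit of only the compared groups, with adjusted p between 0.025 and 0.04. The array files give no genome position for this probe.

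Gsr, glutathione reductase, which turns oxidised glutathione back with NADPH, was 2.96, 2.93, 2.87 and 2.82 in 21% O2 and 3.59, 3.49, 3.49 and 3.38 in 85% O2 at P5. At P14 it was 2.47, 2.50, 2.47 and 2.40 in 21% O2 and 3.53, 3.40, 3.73 and 3.81 in 85% O2. The hyperoxic mice were higher without overlap at both ages, by 1.51-fold at P5 (log2 0.59, SE 0.10, adjusted p = 0.00039) and 2.23-fold at P14 (log2 1.16, SE 0.09, adjusted p = 2.9e-07). The second Gsr probe gave differences of 0.56 and 0.97 (adjusted p = 0.00026 and 1.4e-06).

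The 2 genes that keep protein thiols reduced both rose. Txnrd1, cytosolic thioredoxin reductase, was 3.07, 3.06, 3.14 and 2.98 in 21% O2 and 3.84, 3.95, 3.82 and 3.76 in 85% O2 at P5. The P14 values were 2.41, 2.57, 2.47 and 2.58 in 21% O2 and 4.01, 3.97, 4.02 and 3.95 in 85% O2. No normoxic mouse reached a hyperoxic one. It was 1.71-fold higher at P5 (log2 0.78, SE 0.06, adjusted p = 6.7e-07) and 2.79-fold higher at P14 (log2 1.48, SE 0.09, adjusted p = 1.5e-08).

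Srxn1, sulfiredoxin, repairs peroxiredoxins that hydrogen peroxide has over-oxidised. It was 1.15, 1.05, 0.78 and 0.96 in 21% O2 and 2.41, 3.12, 2.79 and 2.72 in 85% O2 at P5. In the older mice it was 0.92, 0.86, 0.91 and 0.78 in 21% O2 and 3.36, 3.42, 3.41 and 3.51 in 85% O2. The groups were far apart at both ages, with 3.42-fold at P5 (log2 1.77, SE 0.13, adjusted p = 2.3e-07) and 5.89-fold at P14 (log2 2.56, SE 0.11, adjusted p = 1.3e-09).

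G6pdx, glucose-6-phosphate dehydrogenase, which makes NADPH in the pentose phosphate pathway and is X-linked, also differed little. In 21% and 85% O2 its level was 1.98 to 2.21 and 2.16 to 2.40 at P5, and 2.03 to 2.40 and 2.35 to 2.66 at P14, overlapping at both ages. The P5 difference of 0.24 (SE 0.07, 1.18-fold) passed the test (adjusted p = 0.011) but not in the methods' t-test with unequal variances (adjusted p = 0.057). The P14 difference was also 0.24 (SE 0.12) and did not pass (adjusted p = 0.089).

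Nqo1, NAD(P)H quinone dehydrogenase, reduces quinones directly to hydroquinones and is a standard readout of NRF2. Its level at P5 was -1.98, -2.12, -2.09 and -2.02 in 21% O2 and -0.87, -1.00, -0.73 and -0.86 in 85% O2. At P14 it was -3.00, -3.07, -2.89 and -2.99 in 21% O2 and -0.97, -1.00, -0.81 and -0.71 in 85% O2. The 85% O2 mice of both ages lay in one narrow band while the 21% O2 mice were lower at P14 than at P5. The differences of 1.19 (SE 0.07, 2.28-fold, adjusted p = 3.2e-08) and 2.11 (SE 0.09, 4.33-fold, adjusted p = 8.3e-10) had among the smallest standard errors of the list.

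Osgin1, an oxidative stress-induced growth inhibitor, was -0.38, -0.46, -0.58 and -0.30 in 21% O2 and 1.02, 1.27, 1.14 and 1.04 in 85% O2 at P5. The P14 mice had -0.31, -0.24, -0.20 and -0.61 in 21% O2 and 1.91, 1.89, 1.88 and 2.32 in 85% O2. It rose without overlap, 2.92-fold at P5 (log2 1.55, SE 0.12, adjusted p = 3.5e-07) and 5.06-fold at P14 (log2 2.34, SE 0.12, adjusted p = 5.1e-09).

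Hmox1, heme oxygenase 1, breaks heme down to biliverdin, carbon monoxide and iron, and is abundant in macrophages that clear red blood cells. It reached the largest SD within a group of all genes of the list. At P5 its level was 1.30, 1.35, 1.52 and 1.52 in the scrambled antimiR mice in 21% O2, and 2.44, 1.93, 3.08 and 3.59 in those in 85% O2. The SD was 0.12 in the normoxic mice and 0.73 in the hyperoxic mice, without overlap between the groups. The difference was 1.34 (SE 0.27, 2.53-fold, adjusted p = 0.0014), and it did not pass in the methods' t-test (adjusted p = 0.085).

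At P14 the spread lay on the other side. Hmox1 was -0.69, 1.37, -1.52 and 1.27 in the scrambled antimiR mice in 21% O2, and 1.20, 1.42, 1.14 and -1.05 in the antimiR-34a mice. Of these 8 normoxic mice, 3 were at -0.69 or lower and the other 5 at 1.14 or higher, with none between. In 85% O2 the level was 3.37, 3.11, 3.10 and 3.33 with scrambled antimiR, above every normoxic mouse, and the difference of 3.12 (SE 0.63, 8.69-fold, adjusted p = 0.00072) had a 95% interval of 1.77 to 4.47, wider than that of any other gene of the list at P14.

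The second Hmox1 probe separated the same mice. It read -3.44, -1.94, -3.69 and -2.12 in the scrambled antimiR mice and -2.20, -2.07, -2.40 and -3.67 in the antimiR-34a mice of P14 in 21% O2, lowest in the same 3 mice, and its oxygen differences were 1.23 at P5 and 1.73 at P14 (adjusted p = 0.0012 and 0.0033). The 3 low mice were scrambled antimiR replicates 1 and 3 and antimiR-34a replicate 4, none of them an array of deviating brightness. On the mean of 7 macrophage markers, in log2 relative to the P14 average, these 3 mice read -0.22 to 0.04 and the other 5 read -0.19 to 0.04. What went with this split was not tested.

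**Figure D2:**
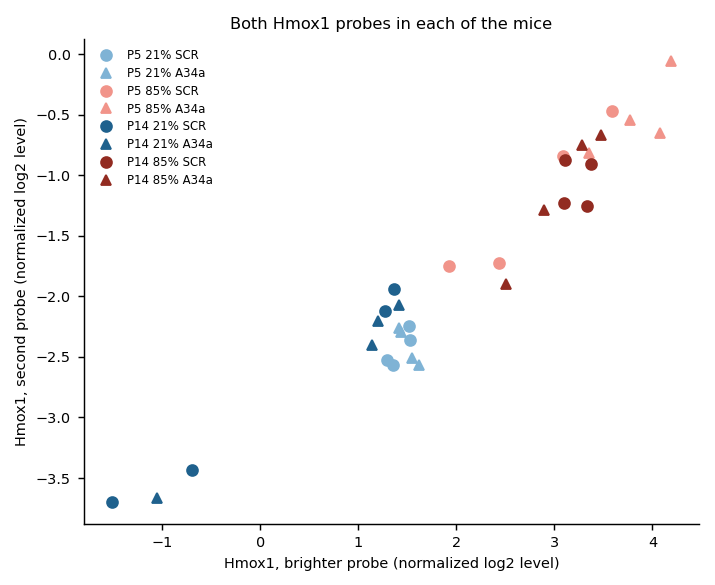
Normalized log2 level of Hmox1 on its brighter probe (x axis) and its second probe (y axis). Each point is 1 of the 32 mice, circles for scrambled antimiR (SCR) and triangles for antimiR-34a (A34a), blue in 21% O2 and red in 85% O2, pale at P5 and dark at P14. Of the 8 mice of P14 in 21% O2, 3 lie apart at the lower left, at -0.69 or lower on the brighter probe.

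Cell type markers moved with oxygen beside these genes. At P5 the macrophage list (7 of 10 markers measured) had a median of -0.20 (-0.38 to -0.14) in scrambled antimiR mice in 21% O2 and of 0.41 (-0.12 to 0.50) in 85% O2, in log2 relative to the P5 average. At P14 the values were 0.02 (-0.15 to 0.04) and 0.10 (-0.22 to 0.47). That small P14 difference averaged markers that went opposite ways, with the mean level of Marco at 2.27 in 21% O2 and 4.67 in 85% O2, of Mrc1 at 1.36 and 2.28 and of Cd68 at 1.93 and 2.80, but of Ear1 at 2.49 and -0.42 and of Lyz2 at 4.17 and 2.98. The epithelial list of 8 markers went from -0.15 (-0.26 to -0.11) to 0.06 (-0.01 to 0.09) at P5 and from -0.13 (-0.17 to -0.05) to 0.19 (0.11 to 0.24) at P14. Its markers also split, with the P5 mean level of Ager at 3.84 in 21% O2 and 4.63 in 85% O2 and of Aqp5 at 4.53 and 5.38, but of Sftpa1 at 5.93 and 5.51 and of Scgb1a1 at 8.20 and 8.03. Sftpc, Sftpb, Sftpa1 and Scgb1a1 were lower in 85% O2 at P5 and the other 4 higher, and at P14 Sftpa1 alone was lower. Red blood cell markers went the other way, from 0.40 (-0.01 to 0.58) to -0.39 (-1.33 to 0.001) at P5 and from 0.75 (-0.33 to 1.30) to -0.70 (-1.61 to -0.17) at P14, as did thymus markers at P14, from 0.49 (0.40 to 0.81) to -0.93 (-1.30 to -0.41). Skeletal muscle markers were also lower in 85% O2 without overlap, at -0.57 (-1.18 to -0.36) against 0.26 (-0.35 to 5.02) at P5 and at -0.52 (-0.84 to -0.30) against 0.53 (0.22 to 1.72) at P14. Endothelial markers were at -0.06 (-0.12 to 0.14) and -0.04 (-0.12 to 0.004) at P5, and at 0.17 (0.10 to 0.21) and -0.10 (-0.21 to -0.04) at P14. These split at P14 too, with the mean level of Tek at 1.76 in 21% O2 and -0.70 in 85% O2, but of Cldn5 at 5.99 and 6.84. Pecam1, Tek, Tie1 and Esam were lower in 85% O2 at P14, and Cdh5, Kdr, Cldn5 and Emcn higher. Neutrophil markers were at 0.05 (-0.15 to 0.59) and -0.23 (-0.36 to 0.11) at P5, and at 0.06 (-0.11 to 0.21) and 0.49 (-0.02 to 0.89) at P14. The part of these cell types in the results was not tested.

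Without the array high in muscle genes, 8 of the 9 genes passed at P5 in scrambled antimiR mice, as with it. Without both P14 arrays of deviating brightness, 7 passed at P14, also as with them.

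The same question was asked in antimiR-34a mice. At P5, 8 of the 9 genes rose in 85% O2, again all but Gclm, with a median difference of 1.35 against -0.09 over all tested probes (46.6% passed, 17.1% higher). At P14 all 9 rose, with a median of 1.65 against -0.12 (65.4% passed, 27.5% higher). Gclm passed narrowly at P14 (log2 0.26, adjusted p = 0.049), and not when any of 6 of the 8 mice was left out, when the adjusted p reached 0.12. G6pdx differed by 0.48 at P5 and 0.48 at P14 (adjusted p = 6.3e-05 and 0.0022).

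In antimiR-34a mice at P5, Hmox1 had 5.08-fold higher levels in 85% O2 (log2 2.34, SE 0.27), Srxn1 3.18-fold, Gclc 2.74-fold, Nqo1 2.66-fold and Osgin1 2.54-fold. At P14 the folds were 5.74 for Srxn1, 5.15 for Hmox1, 4.31 for Nqo1, 3.98 for Osgin1, 3.14 for Gclc, 2.51 for Txnrd1 and 2.11 for Gsr. The second Hmox1 probe gave 3.7-fold at P5 and 2.71-fold at P14 (adjusted p = 3.2e-05 and 0.0095). Slc7a11 was at least 2.78-fold higher at P5 and at least 4.31-fold higher at P14. Adjusted p-values of these genes other than Slc7a11 ranged up to 0.00018 at P5 (Gsr) and 0.0044 at P14 (Hmox1). The oxygen comparisons of scrambled antimiR and antimiR-34a mice share no mice, although they share slides.

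Cell type markers moved with oxygen in the antimiR-34a mice too. From 21% to 85% O2 at P5 the macrophage list went from -0.38 (-0.49 to -0.32) to 0.32 (0.12 to 0.54), the epithelial list from -0.06 (-0.11 to 0.01) to 0.15 (0.03 to 0.35) and the muscle list from -0.13 (-0.18 to 0.09) to -0.42 (-1.05 to -0.27), each without overlap. At P14 the thymus list went from 0.83 (0.62 to 2.01) to -0.60 (-1.13 to -0.57) and the endothelial list from 0.08 (0.03 to 0.15) to -0.14 (-0.19 to -0.07) without overlap, and the macrophage list was at -0.13 (-0.22 to -0.03) and -0.03 (-0.07 to 0.26). Markers split here too. Sftpc, Sftpb, Sftpa1 and Scgb1a1 were lower in 85% O2 at P5 and the other epithelial markers higher. At P14 Marco was at 2.19 in 21% O2 and 4.33 in 85% O2, but Ear1 at 2.40 and -0.53. Kdr, Cldn5 and Emcn were higher in 85% O2 at P14 and the other endothelial markers lower. At each age all lists not named as separate overlapped between the oxygen levels, and the part of the markers was not tested.

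**Figure D3:**
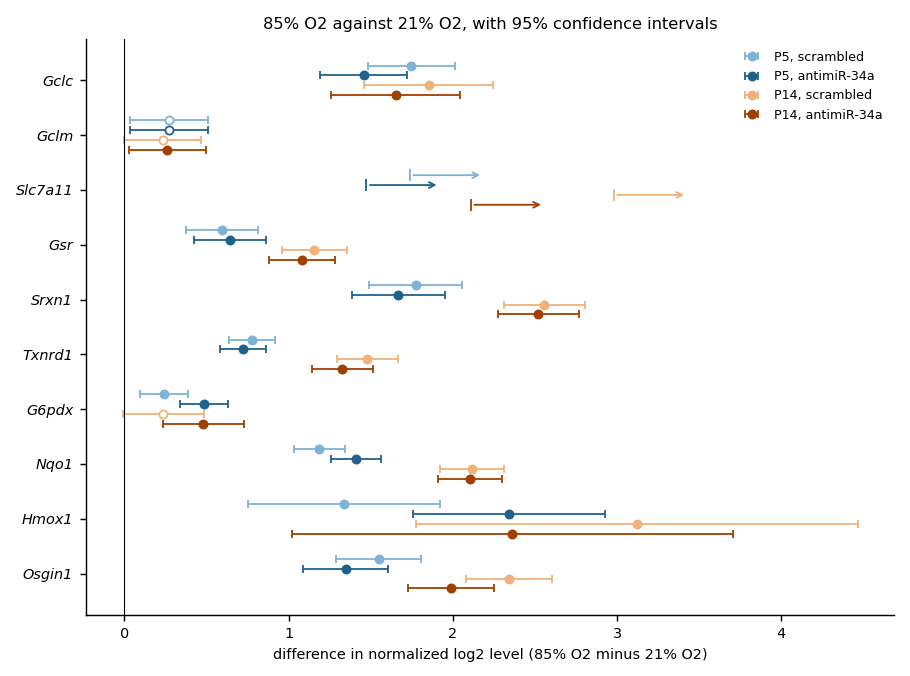
Difference in normalized log2 level between 85% O2 and 21% O2 (x axis) for each NRF2 target gene (y axis), by age and antimiR. Points are limma estimates with 95% confidence intervals, filled where the adjusted p was under 0.05; for Slc7a11, whose 21% O2 arrays were at background, ticks with arrows mark the lower limits. All estimates lie above 0, and those of Gclm and G6pdx lie nearest to it.

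Whether blocking miR-34a changed the genes was asked next. No gene of the list passed the limma test when antimiR-34a mice were set against scrambled antimiR mice of the same age and oxygen level (9 genes in 21% O2, 10 in 85% O2). Without the array high in muscle genes in 21% O2 at P5, and without both arrays of deviating brightness in 21% O2 at P14, none passed either. Over all probes, 0.128% passed in 21% O2 and 0.0639% in 85% O2 at P5, and 0% in 21% O2 and 2.66% in 85% O2 at P14. At an unadjusted p under 0.05, 0 genes were counted in 21% O2 at P5, 2 in 85% O2 at P5 (Nqo1 and Hmox1), 0 in 21% O2 at P14 and 1 in 85% O2 at P14 (Osgin1). Of all probes, 6313 and 4712 of 35982 had such a p in 21% and 85% O2 at P5, and 4025 and 6343 of 38455 at P14. The gene counts were not far from these shares. The methods' t-test counted 0 genes in all 4 comparisons after adjustment. At P14 in 85% O2, 9 of the 10 genes were lower with antimiR-34a, with a median difference of -0.19 against -0.04 over all tested probes. In the same comparison the neutrophil list was at 0.49 (-0.02 to 0.89) with scrambled antimiR and at -0.37 (-0.67 to 0.23) with antimiR-34a, and the epithelial list at 0.19 (0.11 to 0.24) and 0.06 (-0.13 to 0.31). Their part was not tested.

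Hmox1 differed most at P5. In 85% O2 it was 2.44, 1.93, 3.08 and 3.59 with scrambled antimiR and 4.19, 3.35, 4.08 and 3.77 with antimiR-34a. The lowest antimiR-34a mouse lay under the highest scrambled antimiR mouse, so the groups overlapped. The difference was 1.09 (SE 0.27, 95% interval 0.50 to 1.67, adjusted p = 0.15), and 0.68 on the second probe (adjusted p = 0.29). It passed the test without scrambled antimiR replicate 4 (log2 1.37, adjusted p = 0.03) and with dim probes kept in the test (adjusted p = 0.028), and under no other alternative. Without scrambled antimiR replicate 2 it was 0.81 (adjusted p = 0.32), and over all alternatives the adjusted p ran from 0.028 to 0.67. In 21% O2 at P5, where the SD was 0.12 and 0.10, the difference was 0.08 (95% interval -0.50 to 0.67). At P14 it was 0.57 in 21% O2 (95% interval -0.78 to 1.91), where both groups held low mice, and -0.19 in 85% O2 (95% interval -1.53 to 1.16).

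Nqo1 in 85% O2 at P5 was -0.87, -1.00, -0.73 and -0.86 with scrambled antimiR and -0.66, -0.71, -0.68 and -0.80 with antimiR-34a. The groups overlapped, and the difference of 0.15 (SE 0.07) did not pass over all probes (adjusted p = 0.38).

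Osgin1 in 85% O2 at P14 was 1.91, 1.89, 1.88 and 2.32 with scrambled antimiR and 1.52, 1.85, 1.40 and 1.52 with antimiR-34a. Every antimiR-34a mouse lay below every scrambled antimiR mouse. The difference of -0.43 (SE 0.12, 95% interval -0.69 to -0.17) did not pass over all probes (adjusted p = 0.082).

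Replicate 2 of these antimiR-34a mice stood apart from the other 3, with the highest level of its group in 9 of the 10 genes, all but Nqo1. For example, Gclc was 3.66, 4.74, 3.77 and 3.95 and Srxn1 was 3.12, 3.65, 3.02 and 3.08 in the 4 mice. The same mouse was the highest of its group in the macrophage list (0.26 against -0.07 to -0.02), the epithelial list (0.31 against -0.13 to 0.07) and the neutrophil list (0.23 against -0.67 to -0.29), and the lowest in the thymus list (-1.13 against -0.63 to -0.57). Their part was not tested. Without it, 3 genes passed the test as lower with antimiR-34a, namely Gclc (log2 -0.55, adjusted p = 0.016), Srxn1 (log2 -0.35, adjusted p = 0.017) and Osgin1 (log2 -0.52, adjusted p = 0.029). The share of all probes that passed without this mouse was not counted. With any other single mouse left out these 3 genes did not pass. The limma adjusted p then reached 0.68 for Gclc, 0.60 for Srxn1 and 0.20 for Osgin1. Osgin1 was at -0.33 without scrambled antimiR replicate 4. With all mice kept, Gclc differed by -0.31 (95% interval -0.70 to 0.08, adjusted p = 0.43) and Srxn1 by -0.21 (95% interval -0.46 to 0.04, adjusted p = 0.39).

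**Figure D4:**
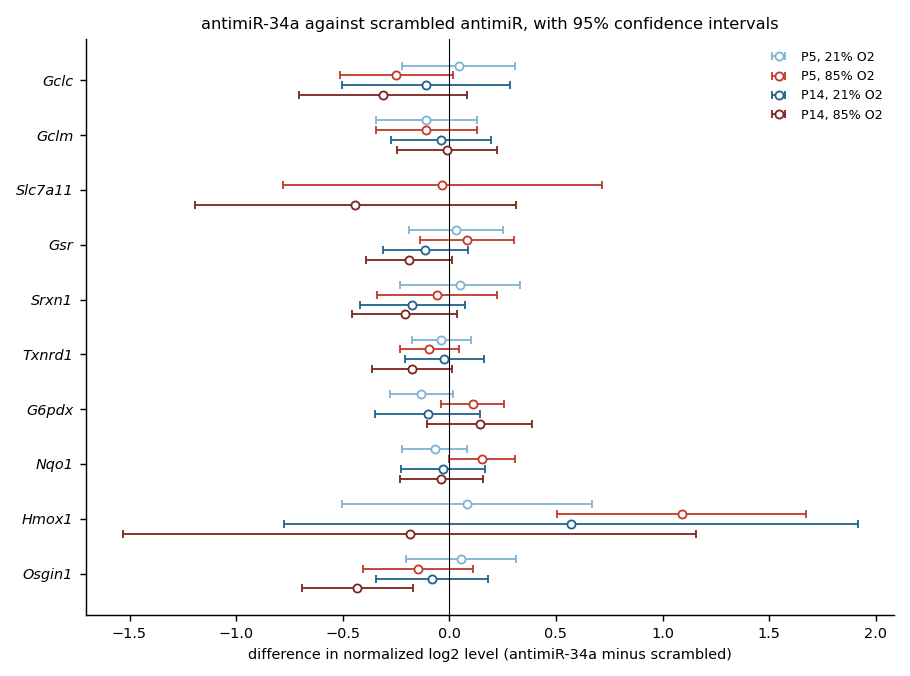
Difference in normalized log2 level between antimiR-34a and scrambled antimiR mice (x axis) for each NRF2 target gene (y axis), by age and oxygen level. Points are limma estimates with 95% confidence intervals, open because no adjusted p was under 0.05; Slc7a11 in 21% O2 is left out because neither group was above background. Hmox1 and Nqo1 at P5 in 85% O2, at 1.09 and 0.15, and Osgin1 at P14 in 85% O2, at -0.43, have intervals that do not reach 0.

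The effect of oxygen itself was then compared between the antimiRs. None of the 9 genes passed the test of the difference at P5 or at P14, where 0.0528% and 0.0884% of all probes passed, nor without the array high in muscle genes at P5 or both arrays of deviating brightness at P14. At an unadjusted p under 0.05, 3 genes were counted at P5 (Nqo1, Hmox1 and G6pdx) and 0 at P14. Such a p was found for 3891 of 35982 probes at P5 and for 5744 of 38455 at P14. The largest P5 difference was that of Hmox1, 1.01 (SE 0.39, 95% interval 0.18 to 1.83, adjusted p = 0.38). For Nqo1 the difference was 0.22 (95% interval 0.01 to 0.44, adjusted p = 0.45) at P5 and -0.01 (95% interval -0.28 to 0.27) at P14.

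The oxygen effect differed between the ages. In scrambled antimiR mice, 6 of the 9 genes had a larger rise at P14 than at P5, Nqo1, Hmox1, Srxn1, Txnrd1, Osgin1 and Gsr, and Gclc, Gclm and G6pdx did not pass. Over the 39160 probes tested, 40.6% passed this test (22.7% higher). In antimiR-34a mice, 5 genes passed, the same without Hmox1, where 42.8% of probes passed (22% higher). Without both P14 arrays of deviating brightness the counts were again 6 and 5, and without the array high in muscle genes 5 passed in scrambled antimiR mice, Hmox1 no longer among them.

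Nqo1 had a difference of 0.93 (SE 0.11, adjusted p = 8.9e-07) in scrambled antimiR mice and 0.70 (SE 0.11, adjusted p = 2.7e-05) in antimiR-34a mice. For Srxn1 the values were 0.78 (adjusted p = 0.0011) and 0.85 (adjusted p = 0.00042), and for Txnrd1 0.70 (adjusted p = 1.1e-05) and 0.61 (adjusted p = 5.3e-05). Osgin1 differed by 0.79 and 0.64 (adjusted p = 0.00078 and 0.0041), and Gsr by 0.56 and 0.44 (adjusted p = 0.0022 and 0.013). The Gsr value in antimiR-34a mice did not pass under quantile normalization or with the authors' values (both 0.29, adjusted p = 0.07).

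Hmox1 passed in scrambled antimiR mice at the edge of the threshold (1.78, SE 0.71, adjusted p = 0.046). It did not pass without any of 12 of the 16 mice, with adjusted p up to 0.13 and the lowest value 1.24 without P14 21% O2 replicate 3, nor on its second probe (0.51, adjusted p = 0.46). In antimiR-34a mice the value was 0.02 (95% interval -1.44 to 1.48). Gclc, Gclm and G6pdx differed between the ages by 0.10, -0.04 and -0.01 in scrambled antimiR mice, with 95% intervals of -0.36 to 0.57, -0.36 to 0.28 and -0.28 to 0.27. For Slc7a11 no difference of the effects is given, because its 21% O2 levels were at background.

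The levels of the 2 ages were also compared within each oxygen level. In 21% O2, 4 of the 9 genes passed in scrambled antimiR mice, all lower at P14 than at P5, Nqo1, Hmox1, Txnrd1 and Gsr. Of all probes 51.3% passed (23.7% lower), so the number of genes that passed was near that share. Without both P14 arrays of deviating brightness the same 4 passed as lower, and G6pdx passed as higher at P14. Nqo1 was -2.05 ± 0.06 (SD, n = 4) at P5 and -2.99 ± 0.07 at P14, and fell by 0.93 (SE 0.08, adjusted p = 8.4e-10). Txnrd1 fell by 0.56 (adjusted p = 8.9e-07) and Gsr by 0.43 (adjusted p = 0.00066), with no overlap between the ages for these 3 genes. Hmox1 fell by 1.31 (SE 0.50, adjusted p = 0.031) with overlapping groups, and the call was lost without any of 4 of the 8 mice, replicates 1 and 3 of P14 and 3 and 4 of P5, with adjusted p of 0.058 to 0.18. The second Hmox1 probe did not pass (-0.37, adjusted p = 0.41).

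In 85% O2, 3 other genes were higher at P14, Srxn1, Slc7a11 and Osgin1, against 41.9% of probes passing (25.4% higher). These 3 of 10 are near the share over all probes. Osgin1 was 1.12 ± 0.12 at P5 and 2.00 ± 0.21 at P14 (SD, n = 4; difference 0.88, SE 0.12, adjusted p = 2.7e-06). Srxn1 differed by 0.66 (SE 0.13, adjusted p = 0.00013) and Slc7a11 by 0.98 (SE 0.36, adjusted p = 0.033). The Slc7a11 call was lost without replicate 1 of P5 or without replicate 1, 2 or 3 of P14, with adjusted p of 0.054 to 0.15. Nqo1, Txnrd1 and Gsr, which were lower at P14 in 21% O2, differed between the ages in 85% O2 by -0.01, 0.15 and 0.13, with 95% intervals of -0.17 to 0.16, -0.01 to 0.30 and -0.07 to 0.33, and did not pass. Without the array high in muscle genes, 3 genes passed in 21% O2, without Hmox1.

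**Figure D5:**
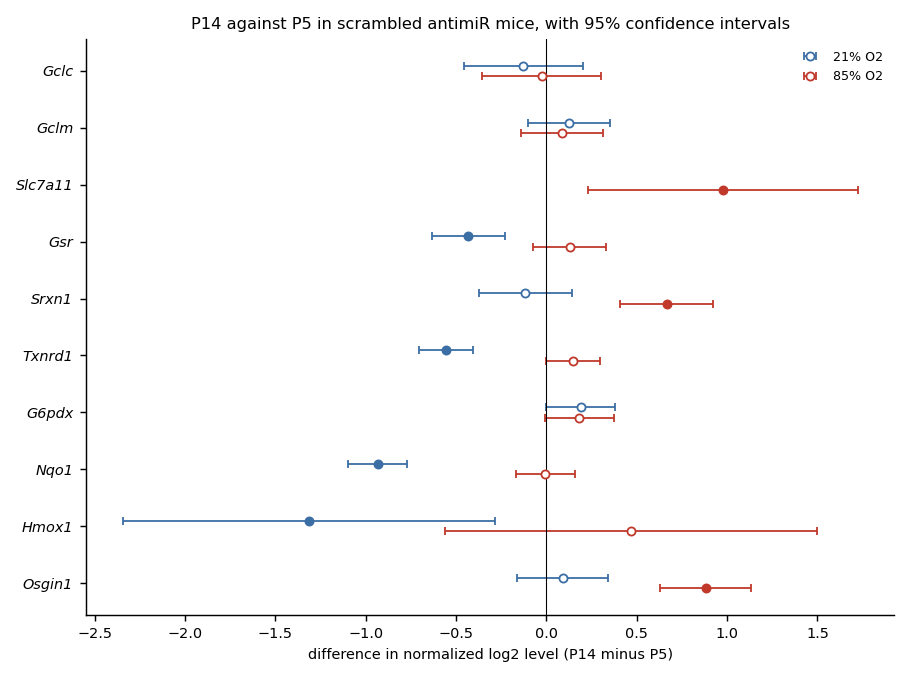
Difference in normalized log2 level between P14 and P5 in scrambled antimiR mice (x axis) for each NRF2 target gene (y axis), in 21% O2 (blue) and 85% O2 (red). Points are limma estimates with 95% confidence intervals, filled where the adjusted p was under 0.05; Slc7a11 in 21% O2 is left out because neither age was above background. Nqo1, Txnrd1, Gsr and Hmox1 are filled below 0 in 21% O2, and Osgin1, Srxn1 and Slc7a11 above 0 in 85% O2.

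Of 12 genes that regulate NRF2 or pair or compete with it, 8 rose in scrambled antimiR mice in 85% O2 at P5 and none fell, with a median difference of 0.29, and at P14 6 rose and 1 fell, with a median of 0.33 (-0.07 over all probes at both ages). In antimiR-34a mice 4 rose and 1 fell at P5, and 6 rose and 2 fell at P14. Of all probes, 43.9% and 60.7% passed in scrambled antimiR mice and 46.6% and 65.4% in antimiR-34a mice at P5 and P14, so the number of regulators that passed was near that share except in scrambled antimiR mice at P5. Nfe2l2 was 3.27 ± 0.12 in 21% O2 and 3.78 ± 0.06 in 85% O2 at P5 (SD, n = 4), a rise of 0.51 (SE 0.07, adjusted p = 4.5e-05). At P14 it was 3.36 ± 0.03 and 3.40 ± 0.12, a difference of 0.04 (adjusted p = 0.71), and the oxygen effect was smaller at P14 than at P5 by 0.47 (adjusted p = 0.0023). In antimiR-34a mice Nfe2l2 rose at both ages, by 0.28 and 0.36 (adjusted p = 0.0043 and 0.0051). These are transcript levels, and NRF2 is controlled chiefly as a protein.

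In scrambled antimiR mice Keap1 took the opposite course with age. It was 2.53 ± 0.03 and 2.62 ± 0.06 at P5 (difference 0.09, adjusted p = 0.51), and rose from 2.45 ± 0.10 to 3.03 ± 0.14 at P14 (0.58, SE 0.08, adjusted p = 5.2e-05). The test of the difference between ages gave 0.49 (adjusted p = 0.0052). With antimiR-34a, Keap1 was 2.49 ± 0.24 in 21% O2 and 2.73 ± 0.18 in 85% O2 at P5, and 2.35 ± 0.06 and 3.02 ± 0.11 at P14.

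Maff, one of the small MAF partners of NRF2, rose 2.37-fold at P5 (log2 1.25, adjusted p = 6.4e-09) and 3.84-fold at P14 (log2 1.94, adjusted p = 2e-06) in scrambled antimiR mice. It was the only gene of the regulator list that passed a comparison of the antimiRs. At P5 in 85% O2 it was 1.44 ± 0.05 with scrambled antimiR and 0.95 ± 0.11 with antimiR-34a, 1.4-fold lower (log2 -0.49, SE 0.06, adjusted p = 0.016), and its rise with oxygen was smaller by 0.79 (SE 0.09, adjusted p = 0.0058). At P14 that difference was 0.08 (adjusted p = 0.92). Bach2, a repressor that competes for the same elements, was the only regulator that fell in scrambled antimiR mice at P14 (log2 -0.58, SE 0.08, adjusted p = 2.9e-05).

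A second list held 26 further genes known as NRF2 targets. In scrambled antimiR mice 19 rose and 1 fell in 85% O2 at P5, with a median difference of 0.53, and 19 rose and none fell at P14, with a median of 0.63. In antimiR-34a mice 21 rose and 2 fell at P5, and 20 rose and none fell at P14. Over all probes, 17.4% were higher and 26.5% lower at P5, and 28% and 32.6% at P14, in scrambled antimiR mice, and 17.1% and 29.5%, and 27.5% and 37.8%, in antimiR-34a mice. The largest rises were those of Gpx2, a glutathione peroxidase, at 4.69-fold and 8.43-fold (adjusted p = 2e-07 and 2.7e-09), Akr1b8, an aldo-keto reductase, at 3.17-fold and 5.12-fold (adjusted p = 1.2e-07 and 9.8e-08), and at P5 Ephx1, microsomal epoxide hydrolase, at 3.86-fold (adjusted p = 3.7e-10). Ugdh, which makes UDP-glucuronate, was the 1 gene that fell at P5 (log2 -0.32, adjusted p = 0.002), and it rose at P14 (log2 0.32, adjusted p = 0.012), with a difference between ages of 0.64 (adjusted p = 0.00013). None of the 26 passed when the antimiRs were compared, at either age or oxygen level.

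On the genome build of the array files, mm9, the probes of 9 of the 10 genes have positions: Nqo1 chr8:109912440-109912499, Hmox1 chr8:77624207-77624266 (second probe chr8:77620797-77620856), Gclc chr9:77641296-77641355, Srxn1 chr2:151937009-151937068, Txnrd1 chr10:82360230-82360289, Slc7a11 chr3:50169700-50169759, Osgin1 chr8:121970077-121970136, G6pdx chrX:71654949-71655008 and Gsr chr8:34808488-34808547 (second probe chr8:34808413-34808472). Exon and UTR annotation of this build was not used here.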

How the data were processed

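The authors hybridised Cy3-labelled RNA of 32 lungs to single-colour Agilent mouse arrays and deposited each array's scanner intensity values, which Feature Extraction 10.7.3.1 had background-subtracted and detrended within the array (build mm9 per the file headers). They also deposited a table of log2 values, which has the same distribution in every column and was used as an alternative. Control spots were left out, and repeated spots were averaged to 1 value a probe, without spots flagged as outliers. A probe with only flagged spots kept its value. Each array's 75th percentile was subtracted from the log2 of the processed intensity. Testing required that some group in the fit had the probe above background in all 4 of its mice. Differences were fitted in limma 3.58.1 (R 4.3.3; lmFit, eBayes) with 1 mean per group, the 16 arrays of an age together and all 32 for comparisons of ages, and p-values were adjusted by Benjamini-Hochberg over every probe tested, 35982 for P5, 38455 for P14 and 39160 for both, with a threshold of 0.05. Each array is 1 mouse, and the number of mice limits the precision. The scripts were tested on simulated data.

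The brightest probe of a gene stands for it. The members, the regulator list (12 genes), the further target list (26 genes) and the marker lists of lung epithelium, endothelium, macrophage, neutrophil, red blood cell, skeletal muscle and thymus were chosen with earlier results of these data known. All members are named. Other genes named are Nfe2l2, Keap1 and, over the regulator and further target lists, up to 3 genes that passed with the largest oxygen difference in each direction in scrambled antimiR mice at each age. Alternatives were quantile and normexp processing, the authors' values, dim-probe filters, the mean of a gene's probes, the groups of a comparison fitted alone, the methods' t-test, the replicate number as a block, and each mouse left out.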

Additional observations from a re-analysis of the deposited data

Results flagged for a closer look

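Of 96 sets of 4 mice (12 probes in 8 groups), 6 held a mouse separated from the other 3 by more than Dixon's 95% critical value, and chance gives about 1 in 20. Hmox1 was -1.05 in replicate 4 of the antimiR-34a mice of P14 in 21% O2, where the other 3 were at 1.14 to 1.42. Srxn1 was 3.65 in replicate 2 of the antimiR-34a mice of P14 in 85% O2, against 3.02 to 3.12. Osgin1 was 2.32 in replicate 4 of the scrambled antimiR mice of P14 in 85% O2, against 1.88 to 1.91. Slc7a11 was -5.29 in replicate 1 of the scrambled antimiR mice of P5 in 85% O2, against -4.17 to -4.06. The other Slc7a11 values, -6.95 in replicate 3 of the scrambled antimiR mice of P5 in 21% O2 and -8.63 in replicate 1 of those of P14, were not above background.

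The oxygen effect on several genes differed between P14 and P5 by the interaction test in limma, which cannot be told apart from slide. In scrambled antimiR mice the differences (log2) were 0.93 for Nqo1, 1.78 for Hmox1, 0.78 for Srxn1, 0.70 for Txnrd1, 0.79 for Osgin1, and 0.56 and 0.41 for the brighter and the second probe of Gsr. In antimiR-34a mice they were 0.70 for Nqo1, 0.85 for Srxn1, 0.61 for Txnrd1, 0.64 for Osgin1, and 0.44 and 0.33 for both Gsr probes.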

How the results depend on the processing

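Results of the target genes' brightest probes that were checked under the alternatives kept their direction. They were all that passed and all oxygen comparisons. Between antimiRs they were Hmox1 at P5 and Gclc, Srxn1 and Osgin1 at P14, in 85% O2. Regulators and further targets were not checked. Under quantile normalization the median of all probes changed sign in some oxygen comparisons. It went from -0.07 to 0.015 in scrambled antimiR mice at P5 and from -0.12 to 0.08 in antimiR-34a mice at P14. The number of target genes that passed ranged, over the alternatives and with single mice left out, from 6 to 9 of the 9 genes counted in the oxygen comparisons. Between antimiRs it stayed at 0 in 21% O2. In 85% O2 at P5 it was 1 (Hmox1) with dim probes kept in the test, and 0 to 1 with single mice left out (1 without scrambled antimiR replicate 4). In 85% O2 at P14 it was 0 to 3 with single mice left out (3 without antimiR-34a replicate 2). Between P14 and P5 in 85% O2 it was 1 (Osgin1) with the methods' t-test, and 2 to 3 with single mice left out. Among single genes the calls lost were mostly those of Gclm, Hmox1 and Slc7a11. Leaving out both P14 arrays of deviating brightness was chosen after seeing the data, and changed the oxygen counts at P14 in neither antimiR (7 and 9).

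The correlation of the deviations of same-numbered mice had a median of 0.0085 at P5 (-0.12 to 0.15) and 0.039 at P14 (-0.35 to 0.49), and was over 0.1 in 4 and 6 of 24 pairs, so the numbers were not taken as pairs. With the replicate number as a block, 8 and 8 of the 9 genes passed in the oxygen comparisons at P5, 7 and 8 at P14 (scrambled antimiR and antimiR-34a), and 0 in every antimiR comparison. The block ended the calls of Gclm at P14 in antimiR-34a mice (adjusted p = 0.052) and of Hmox1 between ages (adjusted p = 0.060). Quantile normalization moved the median difference of all probes by up to 0.199 on the log2 scale, in the oxygen comparison of antimiR-34a mice at P14. Slc7a11 is limited by its signal in 21% O2, which lay at background, and it is not tested where every array must be above background.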
